A study of Homo sapiens with 12 samples.

Results

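The 10 genes described here, BCL2, BCL2L1, BCL2L2, MCL1, BAX, BAK1, BBC3, PMAIP1, BCL2L11 and BID, belong to the BCL2 family, which holds targets of senolytic drugs and the antagonists of those targets. They were chosen by symbol, and all 10 were found among 38716 gene symbols. Their mRNA and ribosome footprints were measured in IMR90, a widely used human lung fibroblast strain, either while it proliferated (Pro) or after continued passaging had brought it to replicative senescence (Sen). No treatment of the growing cells other than passaging is named for either state. According to the published methods, cells of both states were harvested in a buffer that held cycloheximide. Independent replicas of both states were grown, and the 3 lysates of a state each yielded a Ribo-seq library, in which the stretches of mRNA covered by ribosomes are sequenced, and an RNA-seq library of poly(A)-enriched RNA, which makes 12 libraries. The growth protocol names 2 isolates of the line, I90-10 and I90-79, but does not say which isolate gave which sample, and the RNA-seq files of the proliferating cells carry a tag resembling DMSO that the labels do not explain. State, isolate and any such exposure cannot be told apart.

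Proteins of the BCL2 family decide at the outer mitochondrial membrane whether a cell dies by apoptosis. The antiapoptotic members BCL2, BCL-xL (gene BCL2L1), BCL-w (BCL2L2) and MCL1 hold in check the effectors BAX and BAK (BAK1), which otherwise assemble into pores and release cytochrome c. The BH3-only members PUMA (BBC3), NOXA (PMAIP1), BIM (BCL2L11) and BID occupy the groove of the antiapoptotic proteins or activate the effectors directly, and NOXA binds mainly to MCL1. Senescent cells are known to resist apoptosis, and drugs that occupy the groove of BCL2, BCL-xL and BCL-w, such as navitoclax, kill some of them. Gene-level reads do not separate splice forms of opposite action, such as the long and short forms of BCL-x and MCL1, so every value below is a sum over the forms of a gene.

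The leaders of these mRNAs differ, and the start sites are shown here because footprints upstream of the coding sequence (CDS) separate the members below. In the Ensembl canonical transcripts of GENCODE v44lift37 (GRCh37), the 5′ UTR has 54 bases in BAX (chr19:49458072-49465055, plus strand) and 80 in MCL1 (chr1:150533371-150552214, minus strand), and neither holds an ATG. The 5′ UTR of PMAIP1 (chr18:57567228-57571537, plus strand) has 182 bases and that of BID (chr22:18216904-18257536, minus strand) 147, again without an ATG. BCL2L1 (chr20:30252255-30311792, minus strand) has 381 bases with 3 upstream ATGs, and BAK1 (chr6:33540324-33548070, minus strand) has 283 bases with 3. BBC3 (chr19:47724079-47736023, minus strand) has 2, BCL2L11 (chr2:111876955-111926021, plus strand) 1, BCL2L2 (chr14:23767999-23780960, plus strand) 1, and BCL2 (chr18:60790579-60987361, minus strand) 8. Of 15444 genes listed in these data with a representative (Ensembl canonical) coding transcript, 42.0% held an upstream ATG, and their median 5′ UTR was 140 bases long. Shown here are the 27 bases around the ATGs of MCL1, whose footprints lay almost wholly in the CDS, and of PMAIP1, BCL2L1 and BAK1, which also had footprints upstream. They are given in the transcript direction, with the ATG in capitals.
MCL1 annotated start, chr1:150551992-150552018, minus strand: cggcgactggcaATGtttggcctcaaa
PMAIP1 annotated start, chr18:57567398-57567424, plus strand: gcaccggcggagATGcctgggaagaag
BCL2L1 annotated start, chr20:30310007-30310033, minus strand: cctattataaaaATGtctcagagcaac
BCL2L1 upstream ATG 1, chr20:30310644-30310670, minus strand: tcgatccgggcgATGgaggaggaagca
BCL2L1 upstream ATG 2, chr20:30310559-30310585, minus strand: ctgccgggtcgcATGatccctccggcc
BCL2L1 upstream ATG 3, chr20:30310039-30310065, minus strand: gtgttttggacaATGgactggttgagc
BAK1 annotated start, chr6:33545367-33545393, minus strand: gagacctgaaaaATGgcttcggggcaa
BAK1 upstream ATG 1, chr6:33547983-33548009, minus strand: gctggcacctctATGatcactggagtc
BAK1 upstream ATG 2, chr6:33547921-33547947, minus strand: ggctacatccagATGccgggaatgcac
BAK1 upstream ATG 3, chr6:33547912-33547938, minus strand: cagatgccgggaATGcactgacgccca
All 3 upstream reading frames of BCL2L1 close before the CDS, after 11, 17 and 9 codons, and the third begins 32 bases before the annotated start. Those of BAK1 run for 66, 5 and 2 codons and also close before the CDS.

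RNA-seq libraries held from 7902427 to 14144455 reads over the 5′ UTR, CDS and 3′ UTR, and Ribo-seq libraries held from 54421 to 1718521 CDS reads. Pro 1 and Sen 2 were the shallow Ribo-seq libraries: 3 counts there corresponded to 52.1 and 52.7 CPM (read counts scaled to the TMM-adjusted library size), against at most 5.83 CPM in the other 4. In Sen 2, 44.7% of the Ribo-seq reads over the 3 regions lay in 5′ UTRs, against 2.78% to 13.8% in the other 5. The markers of the state moved with the labels: mRNA of CDKN1A (p21) rose by a log2 fold change of 1.60 ± 0.07 (SE) and that of CDKN2A (p16 and p14ARF) by 0.62 ± 0.09, whereas LMNB1 fell by 2.84 ± 0.11, MKI67 by 2.30 ± 0.08 and HMGB1 by 1.38 ± 0.07. All 10 fibroblast markers were detected, and the defining markers of epithelium, endothelium and leukocytes CDH1, PECAM1, CDH5, VWF, PTPRC and LYZ stayed at or under 1 CPM in every RNA-seq library. Of 5 endothelial markers only TEK exceeded 1 CPM, and the summed list ranged from 54.4 to 62.1 CPM in Pro and from 93.8 to 106 CPM in Sen. Of 5 leukocyte markers only CD68 did, with summed levels of 19.3 to 21.4 and 31.8 to 34.7 CPM. Of 5 epithelial markers only EPCAM did, at 1.03 CPM in Pro 2, and the list summed to at most 2.82 CPM. The part of these lists in the results was not tested.

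At the mRNA level, 9 of the 10 members changed between the states (edgeR quasi-likelihood test, Benjamini-Hochberg adjusted p under 0.15 over 12787 genes), and 6 of these were higher and 3 lower in senescent cells. Such calls were common: 73.6% of all genes tested were called, 36.6% as higher and 37% as lower, so the number of members called says little. The size of the changes separated the members. BCL2L1, PMAIP1 and BCL2L2 were 2.40- to 2.87-fold higher in senescent cells, BCL2L11 and BCL2 fell to 0.189 and 0.454 of their proliferating level, and the other 5 differed by at most 0.38 on the log2 scale. The median log2 fold change was 0.23 over the members and -0.01 over all genes tested. All values are shares of a library, so a change in RNA content per cell is not seen, and in these bulk lysates fewer expressing cells and less RNA per cell cannot be told apart.

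**Figure D1:**
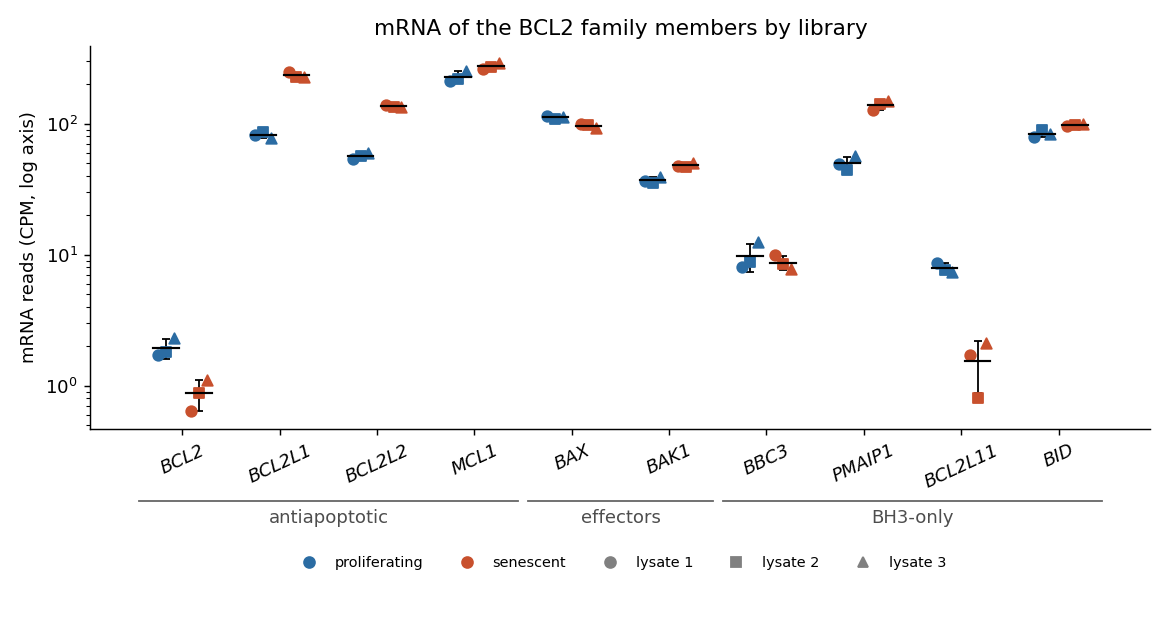
mRNA reads of each member in every RNA-seq library, in CPM on a log axis; blue symbols are the 3 proliferating and orange symbols the 3 senescent lysates, with the symbol shape giving the lysate number, black lines the mean and error bars the SD. The groups did not overlap for any member except BBC3, and the widest separations are those of BCL2L1, BCL2L2, PMAIP1 and BCL2L11.

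Among the antiapoptotic members, the mRNA of BCL2L1 stood at 81.8, 85.7 and 77.2 CPM in the 3 proliferating libraries and at 247, 227 and 229 CPM in the senescent ones. The groups were far apart relative to their spread, with a log2 fold change of 1.52 ± 0.07 (SE, n = 3 per state, adjusted p = 8.88e-14 in edgeR). BCL2L2 rose from 53.7, 56.3 and 59.4 CPM to 139.5, 133 and 135 CPM, that is by 1.26 ± 0.07 on the log2 scale (adjusted p = 1.72e-12, edgeR). Other genes overlap the BCL2L2 locus, as described below, so its level is uncertain. Overlap in GENCODE v44lift37 is not particular to BCL2L2. On the opposite strand lie BCL2L1-AS1 and ABALON at BCL2L1, ADAMTSL4 at MCL1 and GGNBP1 at BAK1. ADAMTSL4-AS1 shares the strand of MCL1, and snoU13 that of BCL2. The strand rule of the counting is not known for these members either. MCL1, whose protein is short-lived, changed little in mRNA, from 213, 221 and 253 CPM to 263, 269 and 289 CPM. This small difference still exceeded the spread between replicates, at a log2 fold change of 0.26 ± 0.08 (adjusted p = 0.0057, edgeR). BCL2 itself, the founding member and a drug target in leukaemia, was near the limit of detection, with 14, 21 and 25 reads in proliferating and 6, 12 and 12 reads in senescent libraries. Its level fell from 1.94 ± 0.335 to 0.872 ± 0.229 CPM (SD, n = 3), with a log2 change of -1.14 ± 0.29 (adjusted p = 0.00173, edgeR).

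Of the effectors, BAX mRNA was slightly lower and BAK1 mRNA slightly higher in senescent cells. BAX measured 115, 109 and 113 CPM in proliferating and 100.02, 97.8 and 92.8 CPM in senescent libraries, a log2 fold change of -0.21 ± 0.07 (adjusted p = 0.0109, edgeR). BAK1 measured 36.7, 35.3 and 39.2 CPM against 47.8, 46.8 and 49.8 CPM, with a log2 change of 0.38 ± 0.08 (adjusted p = 0.000333, edgeR). The 2 effectors therefore moved in opposite directions, each by at most 0.38 on the log2 scale, without overlap between the states. BAK1 has processed pseudogenes with which it may share reads.

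The 4 BH3-only members went separate ways. PMAIP1, a p53 and stress-response target, rose from 49.2, 44.03 and 56.3 CPM to 127, 141 and 149 CPM, with a log2 change of 1.48 ± 0.09 (adjusted p = 3.2e-12, edgeR). BCL2L11, whose product BIM binds every antiapoptotic member, fell from 8.67, 7.69 and 7.35 CPM to 1.70, 0.806 and 2.10 CPM, with a log2 change of -2.40 ± 0.23 (adjusted p = 4.72e-09, edgeR). BBC3, another p53 target, did not pass the test: it measured 8.06, 8.81 and 12.5 CPM in proliferating and 9.90, 8.43 and 7.77 CPM in senescent libraries, with overlapping groups and a log2 fold change of -0.19 ± 0.16 (adjusted p = 0.292, edgeR), but it was called as lower without Pro 1 (0.121). BID, which caspase-8 cleaves to its active form, rose from 79.8, 88.9 and 83.7 CPM to 95.4, 97.4 and 99.2 CPM, with a log2 change of 0.21 ± 0.07 (adjusted p = 0.0148, edgeR). Scaling by library totals in place of TMM factors ended the call of BID (adjusted p = 0.213) and added BBC3 as lower (0.101).

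Most of the BCL2L11 reads that made up this fall lay in the 3′ UTR. The 3′ UTR held 58, 78 and 70 reads in the proliferating and 12, 5 and 13 in the senescent RNA-seq libraries, whereas the CDS held 11, 6 and 7 against 4, 5 and 7 reads. The 3′ UTR share of the BCL2L11 reads was 81.7%, 86.7% and 88.6% in proliferating and 72.7%, 45.5% and 56.5% in senescent cells, so the states did not overlap. The exact two-sided permutation test gave p = 0.1, the smallest that 3 against 3 samples allow, and the share over all genes stood between 24.7% and 28.9% in every RNA-seq library. The senescent shares rest on 11 to 23 reads a library, and the CDS reads alone were too few to be tested. MIR4435-2HG lies on the opposite strand of this locus in GENCODE v44lift37, and how strand was used in the counting is not given in the sources used here. For the other 9 members, the exact permutation p for the 3′ UTR share ran from 0.4 to 0.9, with only 2 senescent libraries of BCL2 deep enough to enter.

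At the level of footprints, 6 members had enough CDS reads to be tested, and 4 of them were called, all as higher in senescent cells, where 54.4% of 7521 genes were called, 27.5% as higher and 26.9% as lower. PMAIP1 had the largest change, followed by BCL2L1, MCL1 and BAK1. BAX and BID did not pass the test. BCL2, BCL2L2, BBC3 and BCL2L11 were not tested because their footprints were too few.

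**Figure D2:**
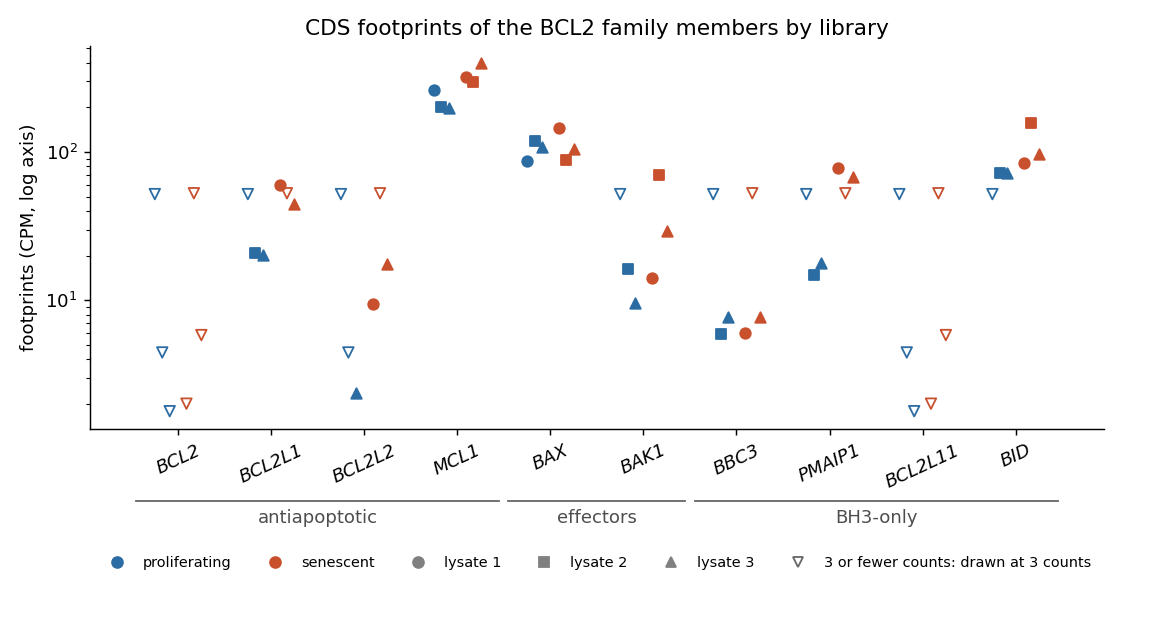
CDS footprints of each member in every Ribo-seq library, in CPM on a log axis; colours give the state and symbol shapes the lysate, and open triangles mark libraries with 3 or fewer counts, drawn at the level that 3 counts would have there. MCL1 is the only member well above the level of 3 counts in every library, and BCL2 and BCL2L11 never rise above it.

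BCL2L1 had 0, 14 and 34 footprints in the proliferating and 90, 2 and 23 in the senescent libraries. Scaled to depth, these are 0, 20.8 and 20.3 CPM against 60.3, 35.2 and 44.7 CPM. The states did not overlap, but the values of Pro 1 and Sen 2 rest on 3 or fewer counts, and the count of 0 in Pro 1 allows a level of up to 52.1 CPM. The log2 fold change was 1.45 ± 0.30 (adjusted p = 5.2e-05, edgeR) and 1.43 with both shallow lysates left out. DESeq2 gave 1.42 but no call (adjusted p = 0.18). The footprint change thus had nearly the size of the mRNA change of BCL2L1, and their difference, the change in translational efficiency (TE, footprints per mRNA), was -0.14 ± 0.31 on the log2 scale. An interval of 2 SE around it runs from -0.75 to 0.48, which leaves room for a change in either direction.

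MCL1 had the best measured footprints, with 260.3, 202 and 199 CPM in the proliferating and 319, 299 and 397 CPM in the senescent libraries. Every senescent value exceeded every proliferating one, and the log2 fold change was 0.77 ± 0.16 (adjusted p = 9.3e-05, edgeR), a 1.70-fold rise beside the 1.19-fold rise of its mRNA. MCL1 was the only one of 6 members called in TE, where 9.37% of 7473 genes were called, 4.88% as higher and 4.48% as lower. Its TE rose by 0.56 ± 0.17 on the log2 scale (adjusted p = 0.0554, edgeR). The log2 TE of single lysates overlapped between the states, with 0.34, -0.13 and -0.35 in proliferating and 0.28, 0.19 and 0.46 in senescent cells. Pro 1, the shallow one, was the proliferating lysate inside the senescent range, with 15 footprints of MCL1. The TE call was lost without Pro 2 (adjusted p = 0.343), Pro 3 (0.613), Sen 1 (0.243) or Sen 3 (0.397), and it was lost in DESeq2 (0.659), limma voom (0.526), with a filter of 1 read (0.193) and with CDS reads alone as the mRNA level (0.155).

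BCL2L2 gave only 0, 2.5 and 3.5 footprints in proliferating and 14.5, 1 and 9 in senescent libraries. BCL2L2 overlaps the readthrough gene BCL2L2-PABPN1 on the same strand, and HOMEZ and PPP1R3E lie on the opposite strand in GENCODE v44lift37. How reads were divided between these genes and how strand was used are not given in the sources used here. BCL2L2 therefore has an uncertain level. It entered the test without Pro 1, at a log2 fold change of 2.10 ± 0.68 (adjusted p = 0.00663, edgeR), and with the reads of all 3 regions (adjusted p = 0.000559). The mRNA of BCL2L2-PABPN1 measured 49.6, 49.8 and 43.9 CPM in proliferating and 44.7, 43.0 and 48.1 CPM in senescent libraries and did not pass the test (adjusted p = 0.425, edgeR). Of the BCL2L2 mRNA reads, 83.3% lay in the 3′ UTR. BCL2 had 1 footprint in its CDS over all 6 Ribo-seq libraries.

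BAX footprints did not differ beyond their spread, at 86.8, 119 and 108 CPM in proliferating and 146, 87.9 and 105 CPM in senescent libraries. The groups overlapped, and the log2 fold change was 0.22 ± 0.18 (adjusted p = 0.337, edgeR). Its TE difference of 0.40 ± 0.20 was not called (adjusted p = 0.258, edgeR). BAK1 was called as higher (log2 fold change 0.76 ± 0.41, adjusted p = 0.131, edgeR), but its groups overlapped, at 17.4, 16.3 and 9.54 CPM against 14.1, 70.3 and 29.2 CPM. The value of 70.3 CPM came from Sen 2 and stood for 4 reads. The call was lost without Pro 3 (adjusted p = 0.742), Sen 2 (0.228) or Sen 3 (0.478), and in DESeq2 (0.465), limma voom (0.27), with library totals (0.232), a filter of 1 read (0.184) and the reads of all 3 regions (0.166). It was lost without both shallow lysates too (0.212). The value rose to 1.62 with a replicate block (adjusted p = 0.0248) and to 1.53 without Sen 1 (0.0313).

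PMAIP1 had 10 and 30 footprints in Pro 2 and Pro 3 and 117 and 35 in Sen 1 and Sen 3, and none in the shallow libraries Pro 1 and Sen 2. In the deeper libraries this was 14.8 and 17.9 CPM in proliferating and 78.4 and 68.0 CPM in senescent cells. Because the 0 of Sen 2 lies below the values of Pro 2 and Pro 3, the groups overlapped. A count of 0 allows a level of up to 52.7 CPM in Sen 2 and of up to 52.1 CPM in Pro 1. The log2 fold change of 2.11 ± 0.30 (adjusted p = 1.58e-08, edgeR), a 4.31-fold rise, was 2.14 without both shallow lysates. Its size depended on the reads counted: it was 1.62 with the reads of all 3 regions. It was 1.78 with a replicate block and 2.38 without Pro 3. The TE difference of PMAIP1, 0.76 ± 0.32, missed the threshold (adjusted p = 0.171, edgeR). It passed without Sen 2 (0.102) and without both shallow lysates (0.0938). It shrank with CDS reads alone as the mRNA level (0.55, adjusted p = 0.416), in DESeq2 (0.51, 0.97) and in limma voom (0.42, 0.893). Without Sen 1 it was 0.39 (adjusted p = 0.805), and in the analysis of partial variance it was 2.33 (0.93). BID footprints measured 52.1, 72.7 and 72.1 CPM against 84.4, 158 and 97.2 CPM, without overlap, but the log2 fold change of 0.36 ± 0.20 missed the threshold (adjusted p = 0.152, edgeR). It passed without Sen 1 (0.143) and with a replicate block (0.144). In 12 of 14 alternatives BID stayed uncalled, with an adjusted p of up to 0.536 in DESeq2. BBC3 gave 18 CDS footprints in the 3 proliferating and 13 in the 3 senescent libraries, and BCL2L11 gave 5 and 1.

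Groups of 3 that did not overlap were found for 9 of 10 members in mRNA (67.8% of all genes tested), for 3 of 6 in footprints (32.5%) and for 1 of 6, BID, in TE (16.2%). The 3 in footprints were BCL2L1, MCL1 and BID, and the member that overlapped in mRNA was BBC3. The TE difference of BID was only 0.19 ± 0.22 on the log2 scale and was not called (adjusted p = 0.683, edgeR). Its values in Pro 1 and Sen 2 rest on 3 and 9 footprints.

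**Figure D3:**
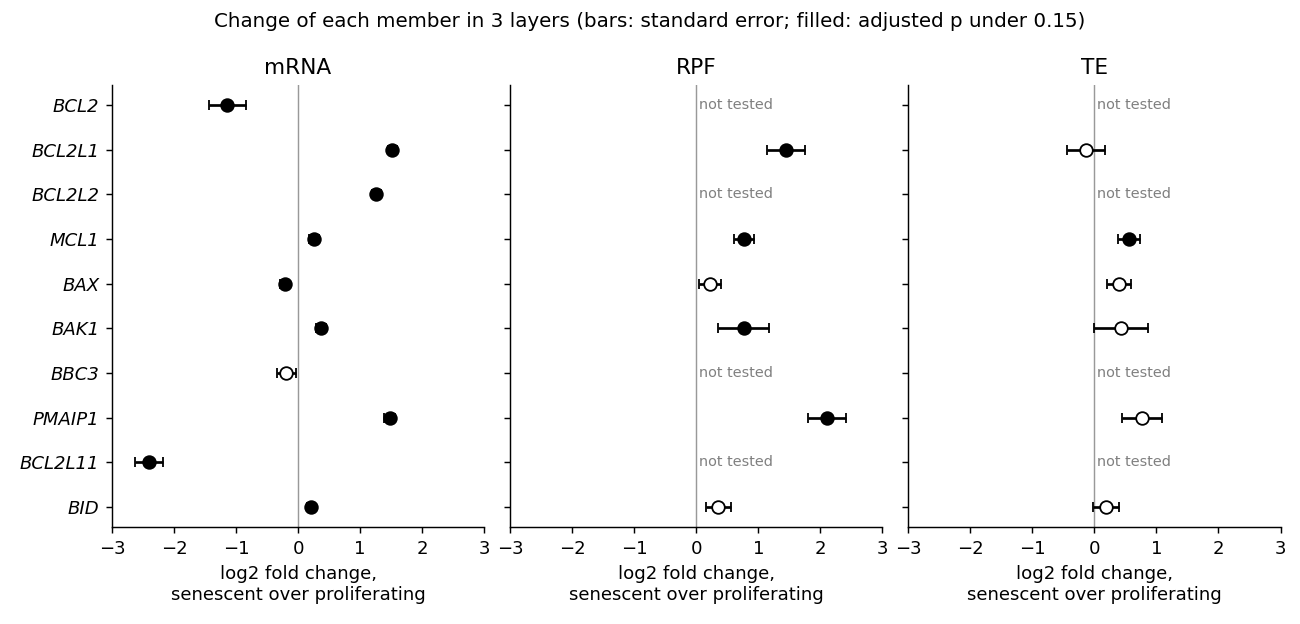
Log2 fold change of each member, senescent over proliferating, in mRNA, in CDS footprints (RPF) and in TE; bars are standard errors of the edgeR fit and filled points have an adjusted p under 0.15. BCL2L1 and PMAIP1 lie far to the right in both mRNA and RPF, and only MCL1 is filled in TE.

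CDS footprints divided by the CDS length and the library total (RPKM) allow the members to be ranked within a state. In proliferating cells MCL1 led with 212 ± 43.8 RPKM (SD, n = 3), followed by BAX with 182 ± 21.6 and BID with 112 ± 15.7. MCL1 and BAX did not differ beyond their spread, whereas every BAX value exceeded every BID value. Next came PMAIP1 with 66.0 ± 57.8, and then BAK1 with 23.0 ± 7.44, BCL2L1 with 19.2 ± 16.6 and BBC3 with 18.3 ± 11.7, which overlapped each other. PMAIP1 and the last 3 rest on 0 or 1 read in Pro 1. Without Pro 1 the means were 98.9 for PMAIP1, 28.8 for BCL2L1, 20.04 for BAK1 and 11.6 for BBC3, and BAX (193) stood above MCL1 (187). PMAIP1 overlapped BID, since its 107.8 in Pro 3 exceeded the 94.2 of BID in the shallow Pro 1. BCL2L2, BCL2L11 and BCL2 came last with 3.27 ± 3.16, 2.62 ± 2.47 and 0.

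In senescent cells MCL1 again had the highest mean, 299.9 ± 31.1, and PMAIP1 was second with 267 ± 234. The SD of PMAIP1 is set by the 0 of Sen 2: its values were 432 in Sen 1 and 370.1 in Sen 3, both above those of MCL1 in the same lysates, 271 and 333. This order depends on the scaling by length, since the CDS has 162 bases in PMAIP1 and 1050 in MCL1. Without it, PMAIP1 had 78.4 and 68.0 CPM in these lysates and MCL1 319 and 397 CPM. BID with 185 ± 83.4 and BAX with 182 ± 38.5 followed and overlapped each other. BCL2L1 stood at 61.9 ± 13.2, above its values in Pro 2 and Pro 3, and overlapped BAK1 at 58.6 ± 50.3. Without Sen 2, where BAK1 had 4 reads, the mean of BAK1 was 30.2 and that of BCL2L1 66.7, and the values no longer overlapped. BCL2L2 stood at 24.4 ± 8.52. Among the antiapoptotic members, MCL1 therefore carried more ribosomes per length of CDS than BCL2L1 in every lysate, although the mRNA reads of BCL2L1 in its CDS overlapped those of MCL1 in senescent cells, at 174 ± 7.28 against 152 ± 21.2 RPKM of mRNA. In proliferating cells these mRNA values were 63.8 ± 5.02 for BCL2L1 and 126 ± 8.54 for MCL1.

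**Figure D4:**
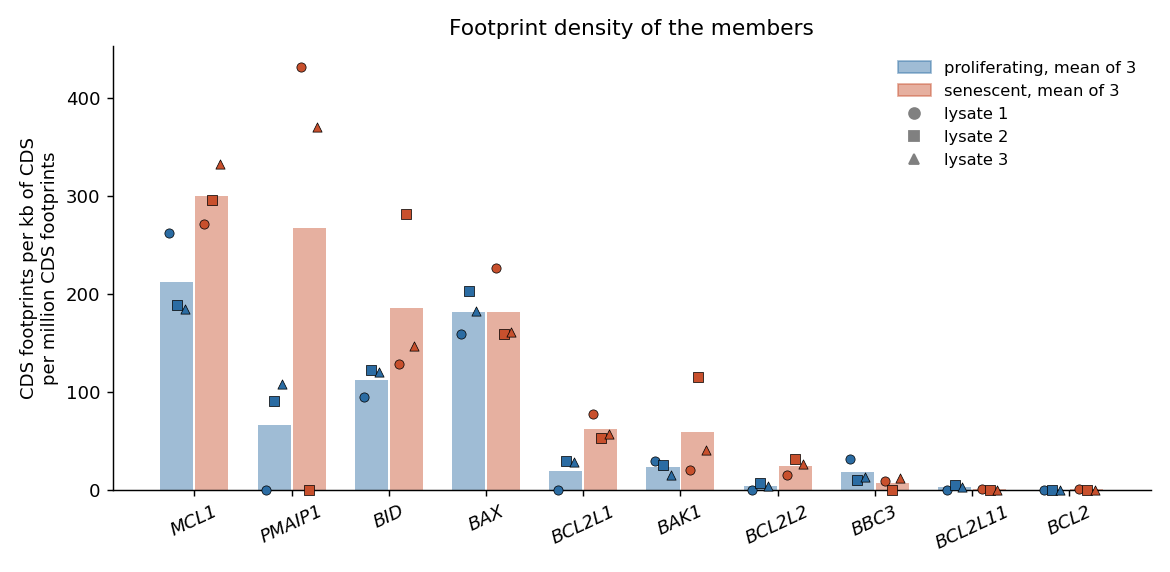
CDS footprints in RPKM (per kilobase of CDS and scaled to the library total), with members in the order of their senescent mean; bars are means over 3 lysates, blue for proliferating and orange for senescent cells, and symbols are single lysates. MCL1 and PMAIP1 reach the highest densities in senescent cells, PMAIP1 with a value of 0 in the shallow library Sen 2.

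Dividing the footprint share of a member by its CDS read share in RNA-seq cancels the length of the CDS. With at least 10 footprints, this ratio lay between 1.40 and 2.25 for MCL1 in all 6 lysates and between 0.336 and 0.488 for BCL2L1 in the 4 deeper ones. PMAIP1 had 1.03 and 1.35 in proliferating and 1.91 and 1.54 in senescent cells. BID ranged from 0.845 to 1.03, BAX from 0.724 to 1.03 and BAK1 from 0.422 to 1.08, all over the 4 deeper lysates. The ratios of BCL2L1 were thus below those of MCL1, PMAIP1, BAX and BID in each of these 4 lysates.

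The members also split by where their footprints lay. Over the 6 Ribo-seq libraries, the 5′ UTR held 59 of 287 PMAIP1 reads over the 3 regions, a share of 20.6% (Wilson 95% confidence interval 16.3 to 25.6). The share was 18.7% of 91 reads for BAK1 (12.004 to 27.9), 17.9% of 39 reads for BBC3 (8.98 to 32.7), 13% for BCL2L1 (9.03 to 18.4, with 26 reads in the 5′ UTR, 163 in the CDS and 11 in the 3′ UTR) and 12.4% of 48.5 reads for BCL2L2 (5.86 to 24.7). In contrast, it was 0.0827% of 1209 reads for MCL1 (0.0146 to 0.467), 0.272% of 367 reads for BID (0.0481 to 1.53) and 0 of 544 reads for BAX, where the interval reaches 0.701%. Over 9791 genes with at least 30 such reads the median share was 1.17%, and 10.3% of these genes had more than 10% of their footprints in the 5′ UTR. Intervals cover counting error only, and the limit of 10% was set after the values were seen.

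Among these 8 members, the 3 with a 5′ UTR share under 1% have no upstream ATG in the transcripts shown above, 4 of the 5 with a share over 12% have at least 1, and PMAIP1 has none. The 3 with low shares also have the shortest 5′ UTRs, 54, 80 and 147 bases, against 158 to 381 bases in the other 5, so length and upstream ATGs cannot be told apart here. PMAIP1 has the shortest CDS of the 10, 162 bases. The 5′ UTR reads were counted on the authors' models, which are not given and may hold other leaders than these transcripts. The ATGs of the counted leaders are therefore not known. In RNA-seq, BAX had 14.3% of its reads in the 5′ UTR and BID 10.6%, so this region was sequenced in the mRNA of both. The RNA-seq share was 27.7% for PMAIP1, 16.3% for BAK1, 16.9% for BBC3, 15.1% for BCL2L1, 3.99% for BCL2L2 and 3.955% for MCL1. This mRNA share lay inside the interval of the footprint share for BAK1, BBC3 and BCL2L1. It lay above that interval for PMAIP1, MCL1, BAX and BID and below it for BCL2L2. Which initiation codon a footprint belongs to cannot be read from region totals.

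The 5′ UTR share of footprints could be compared between the states for 6 members. It stayed under 1% in every library that entered for MCL1, BAX and BID (exact permutation p = 1, 1 and 0.8). BCL2L1 had 28.6% and 19.05% in Pro 2 and Pro 3 and 9.43% and 7.14% in Sen 1 and Sen 3. PMAIP1 had 22.2% and 33.9% against 18.6% and 9.30%, so both senescent values of these genes lay below both proliferating ones. BAK1 had 15.4% and 36.0% against 19.4% and 0%, and overlapped. For these last 3 members, the other 2 libraries held fewer than 10 reads, and with 2 against 2 libraries the exact permutation test cannot go below p = 0.333, the value it gave for BCL2L1 and PMAIP1. Over all genes, the 5′ UTR share moved the other way, from 3.70% and 2.78% in Pro 2 and Pro 3 to 4.89% and 13.8% in Sen 1 and Sen 3.

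**Figure D5:**
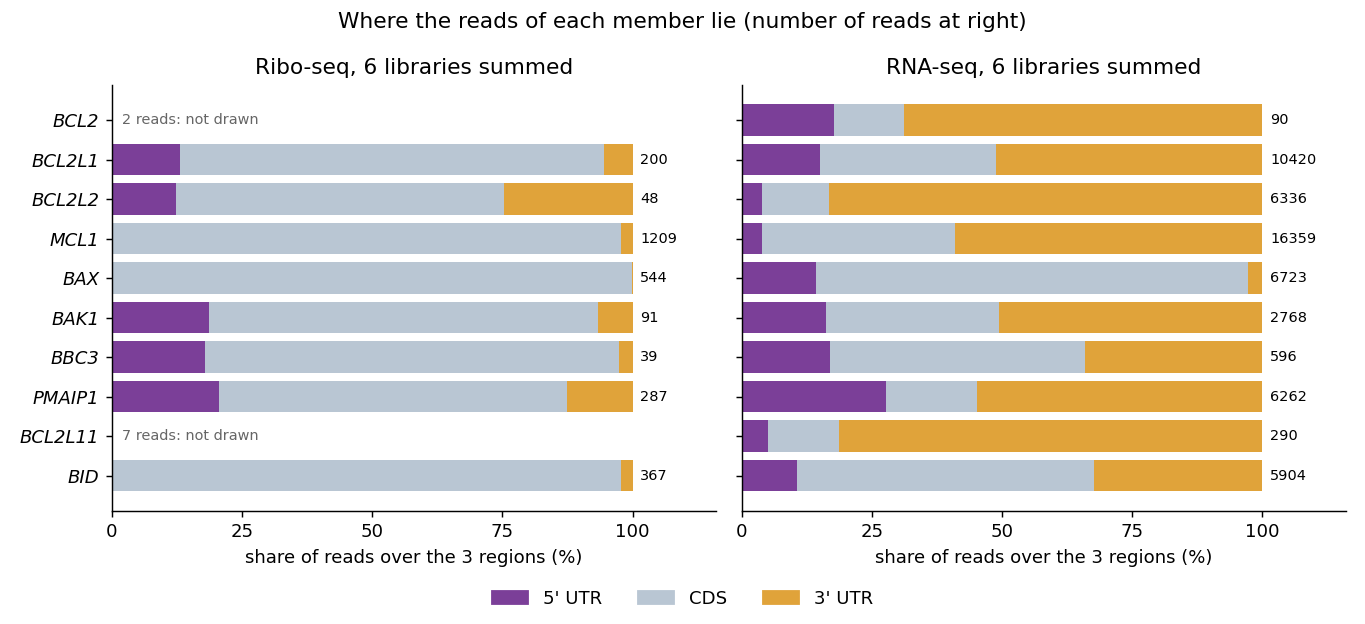
Share of reads in the 5′ UTR, CDS and 3′ UTR for each member, with 6 libraries of each type summed and the number of reads at the right; members with fewer than 30 reads are not drawn. In Ribo-seq, MCL1, BAX and BID have almost no 5′ UTR reads and the other 5 have between 12.4% and 20.6%.

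The other genes of the pathway were read from 6 lists with 57 genes. In mRNA 45 of the 51 tested were called, 25 as higher and 20 as lower, beside 73.6% of all genes, with a median log2 fold change of 0.14. In footprints 21 of 40 were called, 12 as higher and 9 as lower, beside 54.4% of all genes. In TE 7 of 40 were called, beside 9.37% of all genes. The 2 higher ones were TRADD, an adaptor of the TNF receptor (1.43 on the log2 scale), and TNFRSF10A, a TRAIL receptor (1.40), both with overlapping states, and the 5 lower ones included XIAP, which met the naming rule. TRADD and TNFRSF10A did not meet it and are named after their values were seen. The TNFRSF10A call was lost without Pro 2 (adjusted p = 0.358), Pro 3 (0.758), Sen 1 (0.575) or Sen 3 (0.31) and in DESeq2 (0.907), limma voom (0.777) and 3 other alternatives. The TRADD call was lost without Pro 2 (0.194) or Sen 1 (0.284) and in DESeq2 (0.637), limma voom (0.411) and the analysis of partial variance (0.878), and its value was 2.62 without Pro 3. Of the other BCL2 family genes, 4 of the 7 tested in mRNA were higher and 3 lower. Of the genes of the mitochondrial gate and apoptosome, 4 of 9 were higher and 3 lower, and of the caspases and their nuclease 4 of 9 were higher and 4 lower. Of the regulators of family transcription and protein turnover, 3 of 11 were higher and 7 lower.

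Of the death receptors and their adaptors, 7 of 9 rose in mRNA and 5 of 8 in footprints, and 0 were lower in either layer in edgeR, at an unadjusted p under 0.05 too. Over all genes, 36.6% were called as higher and 37% as lower in mRNA, and 27.5% and 26.9% in footprints. TNFRSF10D, a decoy receptor for the death ligand TRAIL, met the naming rule: its mRNA rose from 100.2, 104 and 102.04 CPM to 572, 600.3 and 552 CPM, with a log2 change of 2.49 ± 0.07 (adjusted p = 2.66e-17, edgeR). Its footprints rose from 69.4, 75.7 and 71.5 CPM to 309, 229 and 299 CPM, by 2.03 ± 0.18. Every senescent library exceeded every proliferating one in both layers.

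Of the 6 caspase inhibitors, 3 were higher and 3 lower in mRNA, and 1 was higher and 3 were lower of 5 tested in footprints. Beside them, 36.6% of all genes were higher and 37% lower in mRNA, and 27.5% and 26.9% in footprints. Counts from so short a list say little. BIRC5 (survivin), which also serves in mitosis, fell from 90.7, 85.8 and 74.5 CPM to 26.8, 23.5 and 28.5 CPM in mRNA, a log2 fold change of -1.67 ± 0.09 (adjusted p = 8.93e-13, edgeR). Its footprints changed by -1.91 ± 0.34 (adjusted p = 4.41e-06, edgeR). XIAP, a direct inhibitor of caspases, stood apart in TE, with 52.1, 26.7 and 32.8 CPM of footprints in proliferating and 13.4, 17.6 and 3.89 CPM in senescent cells beside mRNA of 34.8 ± 3.63 and 40.1 ± 1.54 CPM (SD, n = 3). The TE difference was -1.63 ± 0.40 on the log2 scale (adjusted p = 0.00816, edgeR), with no overlap of the states. The footprint values of Pro 1, Sen 2 and Sen 3 rest on 3, 1 and 2 reads, and without Sen 1 the TE difference was -2.72 and the footprint change -2.50. Its mRNA was called as higher by 0.20 (adjusted p = 0.05, edgeR), though the states overlapped there, and this call was lost with library totals (0.35), when RNA-seq was thinned to Ribo-seq depth (0.549), without Pro 1 (0.162) or Pro 2 (0.222) and without both shallow lysates (0.151). The TE call was lost without Sen 3 (adjusted p = 0.186) and in DESeq2 (0.207), limma voom (0.45) and the analysis of partial variance (0.823).

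The 3 genes outside the family whose pattern was nearest to that of BCL2L1 were BLCAP, P4HA2 and EDIL3. Likeness was the root-mean-square difference of log2 CPM, centred per gene and library type, over all 12 libraries, and it was 0.186, 0.211 and 0.212, against a median of 0.940 over 7467 genes. Their mRNA log2 fold changes were 1.17, 1.47 and 1.67 and their footprint changes 1.505, 1.54 and 1.204. The 12 points share the same libraries and depth, and the distance of the nearest of many genes is small by choice.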

How the data were processed

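For each library the deposited table lists gene symbols with reads per class: 5′ UTR, CDS, 3′ UTR and non-coding. The values deposited by the authors were taken to be expected counts, unscaled, since some were fractions of a read, and were rounded after the regions were summed. The submitters' processing notes name cutadapt 1.18, Bowtie 1.0.1, SAMtools 1.8 and DESeq2 1.22.2. Genome build, annotation, strand rule and handling of multiply mapped reads are not given in the sources used here. The mRNA level was the sum of the 3 regions in RNA-seq, and the footprint level (RPF) the CDS reads in Ribo-seq. CPM used TMM-scaled library sizes.

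Genes were tested with edgeR 4.0.16 (limma 3.58.1, R 4.3.3) by the two-sided quasi-likelihood test after filterByExpr, with mRNA and RPF on 6 libraries each and TE as the interaction of library type and state over 12 libraries with the lysate as a block. A gene was called at a Benjamini-Hochberg adjusted p under 0.15 over all genes, matching the 15% rate of the published methods, whose tool (anota2seq) is not installed here. The SE is that of the log2 fold change, derived from the F statistic. Log2 TE of a lysate added 0.5 to each count. Scripts were tested on simulated data.

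CDS lengths came from GENCODE v44lift37, not from protein lengths as first planned. That annotation may differ from that of the authors. The smallest exact permutation p of 3 against 3 libraries is 0.1. The members, lists and tests were chosen with earlier results of these data known. All 10 members were named. Other pathway genes were named where they were called in RPF and mRNA in the same direction with both log2 fold changes over 1 in size, or in TE with a log2 fold change over 1 in size, and with states that did not overlap in that layer. The 3 other genes nearest to BCL2L1 by root-mean-square difference of centred log2 CPM were also named, since it had the largest mRNA change among members tested in all layers.

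Groups and replicate numbers came from the sample titles, which name separate replicas but no pairing between states. Because no pairing is named, the numbers were not taken to pair the samples. Deviations of same-numbered Pro and Sen libraries from their group means correlated by 0.0796, -0.197 and 0.231 in RNA-seq and by 0.0283, 0.0347 and 0.0498 in Ribo-seq across 7473 genes. RNA-seq and Ribo-seq libraries of the same lysate correlated by only 0.034, -0.0672 and 0.0945 in Pro and by 0.0857, 0.0295 and 0.03 in Sen. Such correlations therefore cannot show whether samples of the 2 states were paired. Alternatives were RLE factors, library totals, other filters, DESeq2 1.42.0, limma voom, other region choices, thinning, and leaving out lysates. A block of the replicate number was also tried in mRNA and RPF, and no lysate block in TE. One pathway gene is not reported here by name.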

Additional observations from a re-analysis of the deposited data

How the results depend on the processing

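Of 10 members tested in mRNA, 9 were called, against 4 of 7 tested when RNA-seq was thinned to Ribo-seq depth (all genes 9413 of 12787 against 4305 of 8526), and 9 to 10 when 1 lysate was left out. The 4 calls of 6 in RPF became 2 in DESeq2 (all genes 4088 of 7521 against 1164), and with 10 or more counts per library the 1 member tested was called (610 of 828 genes), and ranged from 3 to 5 over single left-out lysates. A replicate block gave 5 RPF calls, adding BID (adjusted p = 0.144), with 2336 genes called in all, and 2681 genes were called without Sen 1. The replicate block kept the mRNA count at 9. The single TE call became 0 with CDS reads only (unadjusted p under 0.05 for 1 member), in DESeq2 (1), in limma voom (1), with a filter of 1 read (2) and in an analysis of partial variance (0). It became 2 with no lysate block and also without Pro 1 and Sen 2, and ranged from 0 to 2 over left-out lysates. Over all genes, 700 TE calls became 55 in DESeq2, 43 in limma voom, 0 in the analysis of partial variance, 440 with a filter of 1 read, 241 with 10 or more counts per library, 1342 with no lysate block, 1198 without Pro 1 and Sen 2, and from 134 to 1160 without 1 lysate.

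The other pathway genes called numbered 25 of 42 tested in place of 45 of 51 in mRNA when thinned. In RPF they numbered 8 in DESeq2 in place of 21 of 40, all 4 tested with 10 or more counts, and from 12 (without Pro 3) to 25 without 1 lysate. In TE they numbered 0 in DESeq2, limma voom and the analysis of partial variance (unadjusted p under 0.05 for 4, 3 and 3), 0 of the 4 tested with 10 or more counts (0) and 3 with a filter of 1 read in place of 7, and from 1 to 9 without 1 lysate. Directions turned for uncalled values: over left-out lysates BBC3 mRNA ran from -0.295 to 0.025 (without Pro 3), BAX RPF from -0.087 (without Sen 1) to 0.366, BCL2L1 TE from -0.356 to 0.026 (without Pro 3) and BAK1 TE from -0.13 (without Pro 3) to 1.16. BCL2L1 TE was 0.089 in limma voom, and BCL2L2-PABPN1 mRNA was 0.052 with CDS reads only. XIAP mRNA, called at 0.20, turned to -0.16 with CDS reads only. The causes were not tested. Depth limits the footprints of BCL2, BCL2L2, BBC3 and BCL2L11 and every value of Pro 1 and Sen 2.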
